A study of Mus musculus with 8 samples.

Results

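The genes described here are the Trim and Rnf families of RING ubiquitin ligases, measured in mouse embryonic stem cells after knockdown of a further RING ligase gene, Mkrn1. Members were chosen by name: every gene whose symbol starts with Trim or Rnf followed by a digit, except Trim71 and Rnf2, and which has a probe set carrying that symbol alone. This gave 137 genes (58 Trim and 79 Rnf) of 19937 measured. The families are defined by nomenclature, and a few members lack ligase activity or a RING domain.

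A RING finger is a zinc-binding fold with which a ligase holds a ubiquitin-charged conjugating enzyme while its other domains hold the substrate. TRIM proteins place B-box zinc fingers and a coiled coil after the RING, and their last domain sets the partner: PHD and bromodomain for chromatin, NHL repeats for RNA and protein, a COS box for microtubules, PRY-SPRY for many viral and immune targets. RNF proteins share only the RING and range from chromatin enzymes to membrane proteins of the endoplasmic reticulum. In embryonic stem cells the best known member is TRIM28, the corepressor through which KRAB zinc finger proteins silence endogenous retroviruses.

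Total RNA came from R1 cells, male embryonic stem cells of the cross 129X1 x 129S1, grown on gelatin with LIF and 15% serum. The control group (shGFP, 4 arrays) received the plasmid pLKO.1 with a hairpin against GFP, and the knockdown group (shMKRN1, 4 arrays) the same plasmid with a hairpin against Mkrn1. Both groups were transfected transiently with 2 µg of plasmid, 48 h after seeding, kept for 4 days in puromycin at 2 µg/mL and lysed on day 6, so both consist of the puromycin-resistant cells alone, and a single hairpin sequence stands for the knockdown. Whether the arrays of a group stem from separate transfections is not in the labels, so each p-value rests on a spread between samples that may be technical only. The hairpin is shown because it defines the knockdown group.
shMKRN1: gcgagatgttgcttatgcttt

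Expression is given as log2 RMA values, and a difference is shMKRN1 minus shGFP on that scale. A gene was called when the p-value of limma, adjusted by Benjamini-Hochberg over all 19937 genes, lay under 0.05. Mkrn1 was lower in the 4 knockdown arrays than in any control (9.84 ± 0.036 against 10.44 ± 0.069, both SD of 4 arrays; the exact permutation test gave p = 0.0286, its smallest possible value), which left 66.2% of the control level (95% interval 61% to 71.7%). All 10 embryonic stem cell markers lay above 6.50, a limit under which 95% of 1190 silent olfactory and vomeronasal receptor genes lay. Of the markers 1, Nanog, rose (12.31 ± 0.045 to 12.55 ± 0.052, SD of 4 arrays each, without overlap). Its change was 0.25 (limma adjusted p = 0.0256). Of the 10 changes, 4 were above zero and 6 below, the lowest that of Utf1 (-0.15, limma adjusted p = 0.233). Array medians ran from 7.14 to 7.24, and arrays shGFP 7 and shMKRN1 8 stood apart from their groups on the leading principal component (37.6% of the variance), at 23.2 against -3.45 to 6.2 and at 7.46 against -15.2 to -6.02. Of 12 fibroblast markers, 2 rose (Col1a1 by 0.37, Pdgfrb by 0.35). Means were higher in shMKRN1 for 8 and lower for 4, among them S100a4, without overlap (-0.27, limma adjusted p = 0.118). In both groups 4 markers lay under the silent limit, Lum, Fap and S100a4 among them. The mean level of the 12 ran from 6.52 to 6.69 in the shGFP arrays and from 6.56 to 6.77 in the shMKRN1 arrays, and the part of such cells in the results was not tested.

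Few Trim and Rnf genes passed the test after the knockdown, and their share was near that of all genes. Of the 137, 6 rose (Rnf130, Rnf157, Trim30a, Rnf213, Trim21 and Rnf181) and 2 fell (Trim36 and Trim2). These 8 are 5.84% of the members, against 4.49% of all genes. The 6 increases are 4.38% of the members against 3.66% of all genes, and the 2 decreases 1.46% against 0.838%. The changes were small, from 1.15-fold for Rnf181 to 1.43-fold for Rnf130 among the increases, and 1.32-fold for Trim2 and 1.5-fold for Trim36 among the decreases. In RNA from bulk cells, fewer cells that express a gene and less RNA per cell cannot be told apart.

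**Figure D1:**
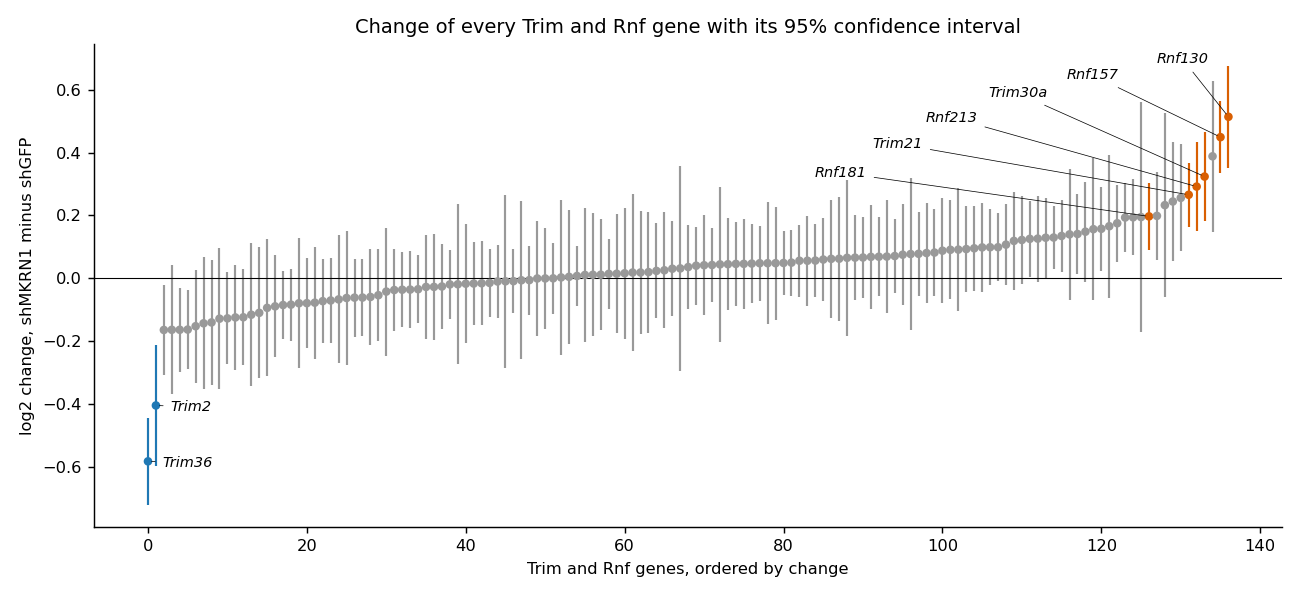
The log2 change of each of the 137 Trim and Rnf genes, shMKRN1 minus shGFP, ordered from lowest to highest, with the 95% confidence interval of the limma fit as a vertical line; orange marks called increases, blue called decreases and grey the rest. Most genes sit within 0.2 of zero, and Trim36 (-0.58) and Rnf130 (0.51) stand at the ends.

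Less strict counts were near those of all genes for separation and unadjusted p, and the share of higher means was above theirs. The 2 groups of arrays did not overlap for 19 members (13.9%, against 14.1% of all genes), 15 of them higher (10.9% against 10.6%) and 4 lower in shMKRN1 (2.92% against 3.51%). An unadjusted p under 0.05 was reached by 24 members (17.5%, against 19.5% of all genes). The mean was higher in shMKRN1 for 85 members (62%, against 52.8% of all genes), and the median change of the members was 0.04, against 0.01 for all genes, differences that were not tested. By family, 4 of 79 Rnf genes rose and none fell, while 2 of 58 Trim genes rose and 2 fell. An unadjusted p under 0.05 was reached by 15 Rnf and 9 Trim genes. Medians were 0.05 for Rnf and 0.02 for Trim, and the difference between the families was not tested.

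Levels bear on what could be seen. For 26 members, 16 of them Trim genes, the means of both groups lay under the silent limit of 6.50, so a change there may not be expression. A further 109 lay above it in both groups. For 2, Trim36 and Trim80 (the latter named after its values were seen), the shGFP mean lay above it and the shMKRN1 mean below. The Trim80 arrays of the groups overlapped, and its change of -0.12 was not called (limma adjusted p = 0.608). The 5 members with the highest mean level were Trim28, Rnf4, Rnf10, Trim13 and Rnf126, and none was called. Their changes ran from -0.04 for Rnf4 to 0.06 for Rnf126, with limma adjusted p-values from 0.638 (Rnf10) to 0.957 (Trim28). The 3 lowest, Trim12a, Trim30d and Trim30e-ps1, lay between 3.83 and 4.59 in both groups. This order is one of probe set signals, which also depend on the brightness of each probe, and gives no order of transcript amounts.

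**Figure D2:**
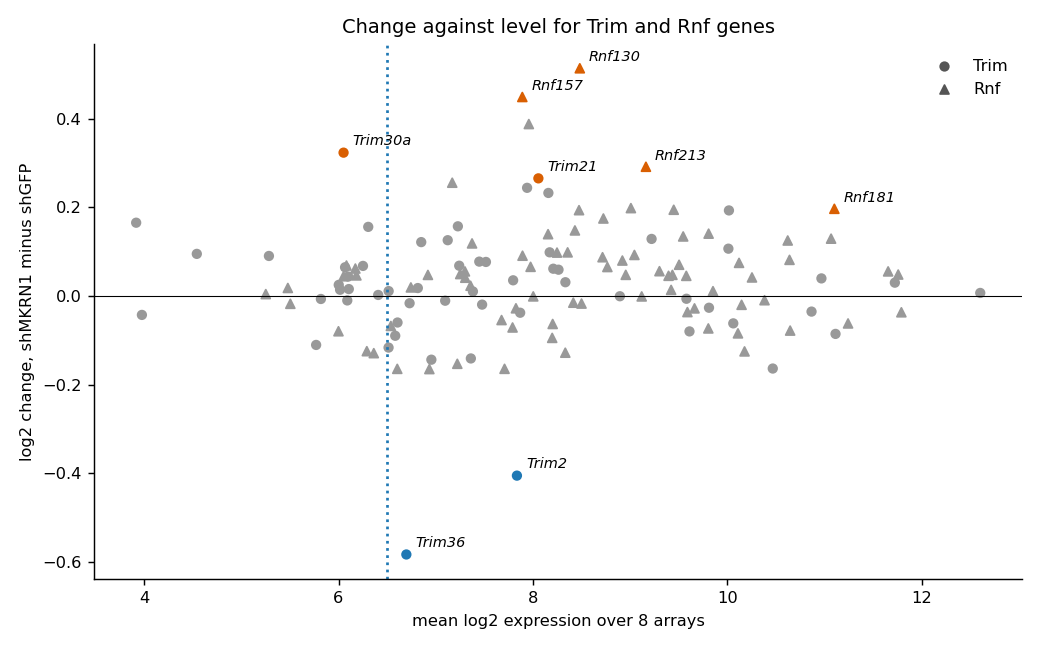
The log2 change of each Trim gene (circles) and Rnf gene (triangles) against its mean log2 level over the 8 arrays, with called increases in orange, called decreases in blue and the rest in grey; the dotted line is the silent limit of 6.50. Of the called genes, Trim30a lies left of the limit and Trim36 just right of it, and the members with the highest levels lie close to zero change.

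**Figure D3:**
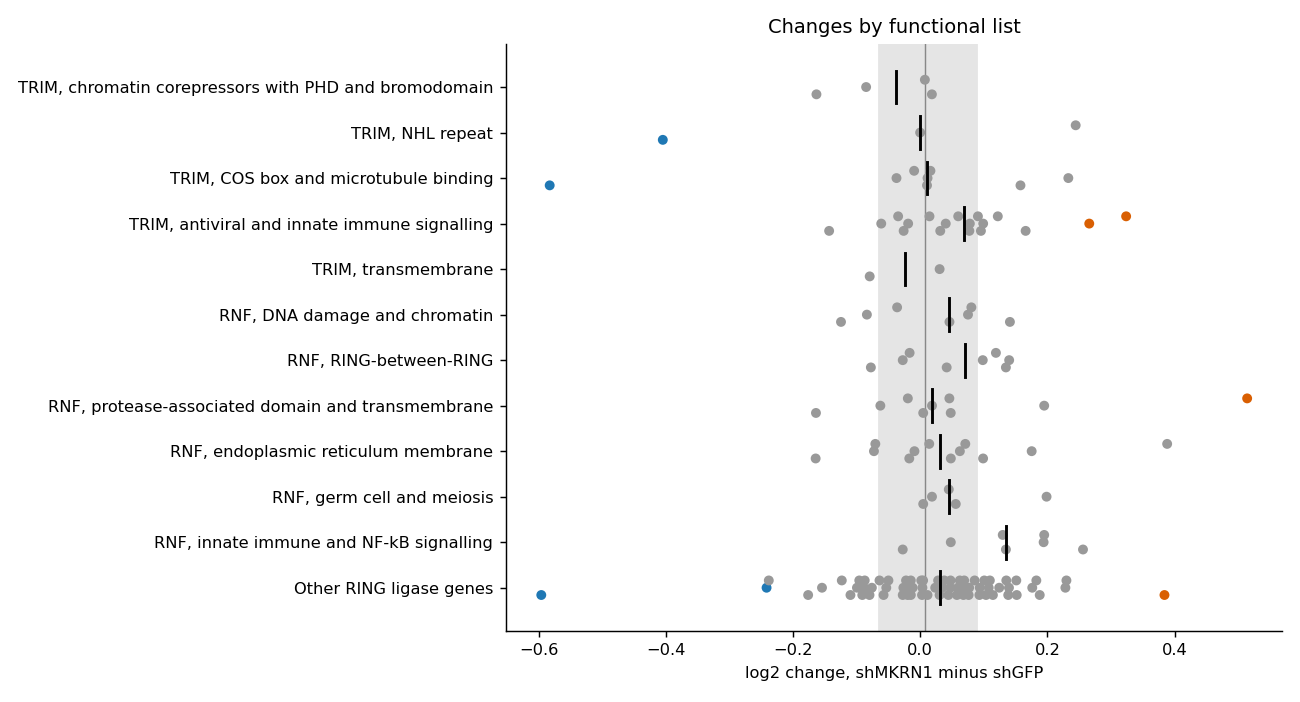
Changes of single genes (dots; called increases orange, called decreases blue) in each functional list, with the list's median as a black bar; the grey band spans the changes of the middle 50% of all single genes, to which a median over a list is not to be compared, and the grey line is their median. Called genes are few in each list, and the median of the innate immune and NF-kB Rnf list lies at 0.13.

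Of the 4 chromatin corepressors with a PHD finger and a bromodomain, none was called, and 1 had an unadjusted p under 0.05. Trim28 measured 12.61, 12.60, 12.59 and 12.59 in shGFP arrays 1, 3, 5 and 7 and 12.61, 12.58, 12.63 and 12.60 in shMKRN1 arrays 2, 4, 6 and 8. The groups overlapped, and the change of 0.01 had a 95% interval of -0.09 to 0.10. Trim24, a coregulator of retinoic acid receptors that reads histone H3, was at 10.58, 10.57, 10.59 and 10.46 in shGFP and at 10.37, 10.45, 10.44 and 10.29 in shMKRN1. All 4 knockdown arrays were lower, with array shGFP 7 nearest to them. Its change of -0.16 (SE 0.056) had a limma adjusted p of 0.138. With quantile normalization it passed, at -0.19 (adjusted p = 0.0349), as it did with array weights (0.0441). Trim33, which acts on SMAD4 in TGF-beta signalling, changed by -0.09 (adjusted p = 0.383) and the testis-enriched Trim66 by 0.02 (adjusted p = 0.958).

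Of the 3 measured NHL-repeat genes, Trim2 fell. Trim2, a ligase best known in neurons, where it binds neurofilament light chain, measured 8.09, 8.03, 8.16 and 7.87 in shGFP arrays 1, 3, 5 and 7 and 7.60, 7.85, 7.58 and 7.51 in shMKRN1 arrays 2, 4, 6 and 8. The groups came close without overlap, shGFP 7 being the lowest control and shMKRN1 4 the highest knockdown array. It fell by 0.40 (SE 0.086; limma adjusted p = 0.029). Its call was lost without any of shGFP 1, 3 or 5 or shMKRN1 2, 6 or 8, at adjusted p-values up to 0.0974, and was kept without shGFP 7 (0.0191) or shMKRN1 4 (0.019). Trim32, a ligase mutated in a limb-girdle muscular dystrophy, lay at 7.82 ± 0.16 in the control and 8.06 ± 0.10 in the knockdown arrays (SD, n = 4 each; limma adjusted p = 0.139), with overlapping arrays, and passed with array weights (0.0307) or without shGFP 5 (0.0376). Trim3, a brain-enriched ligase, was at 8.89 in both groups (95% interval of the change -0.11 to 0.11).

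Of the 8 COS-box genes, whose products bind microtubules, Trim36 fell. It measured 7.05, 6.92, 7.04 and 6.95 in shGFP arrays 1, 3, 5 and 7 and 6.39, 6.53, 6.41 and 6.30 in shMKRN1 arrays 2, 4, 6 and 8. The groups were well separated: the controls lay above the silent limit of 6.50 and 3 of the 4 knockdown arrays below it. The change was -0.58 (SE 0.062; limma adjusted p = 0.00154), and since the lower group lies among silent genes it may understate the true difference. The call held without each array in turn (adjusted p from 0.00324 to 0.00921). The muscle ligase gene Trim63 changed by 0.16 (adjusted p = 0.179, and 0.0398 with array weights), Trim67 by 0.23 (0.377) and Trim46, a gene of the axon initial segment, by -0.04 (0.796). The Trim67 arrays of shGFP were spread widely, from 7.60 in shGFP 1 to 8.34 in shGFP 5, against 8.22 to 8.32 in shMKRN1.

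Of 24 Trim genes listed for antiviral and innate immune signalling, 18 were measured, of which 2 rose and none fell (median change 0.07). Many of this class are induced by interferon. Trim21, a cytosolic antibody receptor that marks antibody-bound virus for the proteasome, measured 7.94, 7.89, 7.90 and 7.97 in shGFP arrays 1, 3, 5 and 7 and 8.17, 8.21, 8.19 and 8.19 in shMKRN1 arrays 2, 4, 6 and 8. Both groups were tight and clearly apart. It rose by 0.27, or 1.2-fold (SE 0.045; limma adjusted p = 0.0127). The call was lost, narrowly, without shGFP 3 (adjusted p = 0.0545) or shMKRN1 6 (0.0511).

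Trim30a, a mouse-specific TRIM that restrains NF-kB signalling, measured 5.87, 5.94, 5.94 and 5.81 in shGFP and 6.10, 6.31, 6.14 and 6.30 in shMKRN1, in the same array order. The groups did not overlap, and every value lay under the silent limit. It rose by 0.32 (SE 0.064; limma adjusted p = 0.0224), with the reservation that expression itself is not shown at this level, and that near-identical gene copies may share its probes. The call was lost without shGFP 1 (0.0594), shGFP 3 (0.0607), shMKRN1 4 (0.0701) or shMKRN1 6 (0.0513), and with shGFP 7 and shMKRN1 8 both left out (0.0602). Of the uncalled genes of this class with the smallest p, Trim56 changed by 0.10 and Trim14 by 0.12 (adjusted p 0.306 and 0.33), both known in sensing of cytosolic DNA. The transmembrane Trim13 (0.03) and Trim59 (-0.08) were not called either.

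**Figure D4:**
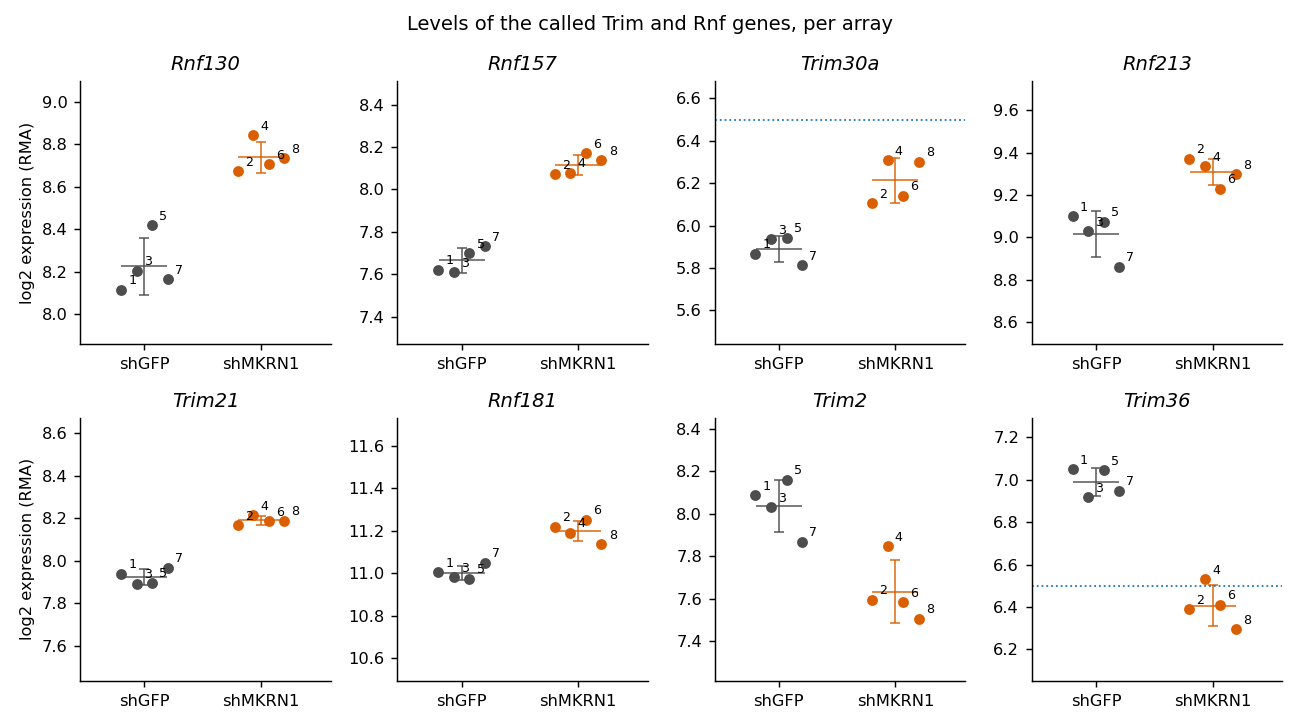
Log2 expression of the 8 called genes in each array (dots, numbered as in the sample titles), with group mean and SD (bars, n = 4); each panel spans the same height on the log2 axis and the dotted line is the silent limit of 6.50. The groups are separate in every panel, and closest for Trim2, where shGFP 7 (7.87) and shMKRN1 4 (7.85) nearly meet.

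Short promoter stretches of the 8 Trim genes with an interferon-type motif are shown next, because Trim21 and Trim30a, which rose, belong to a class known for interferon control through IRF and STAT factors. The motif searched was GAAANNGAAA, the core of the interferon-stimulated response element, on both strands and alone, in RefSeq promoter windows of GRCm38.p6 that reach from 250 bases before to 50 after a gene's start. At least 1 match was present for 12 of 108 members with such a window (11.1%), 8 of them Trim genes, against 3.99% of 27025 genes. The difference was not tested, nor was a part of interferon in the changes. A gene counted if any of its windows held a match, and the 27025 are all genes with a window, measured here or not. Related genes of the chromosome 7 group are among the matches, so the matches are not independent. Of the 8 called genes 7 had a window: Trim21, Trim30a and 1 of several windows of Trim2, which fell, held a match, and those of Rnf130, Rnf157, Rnf181 and Rnf213 did not. Capitals mark the match, and each stretch reads 5′ to 3′ on its gene's strand.
Trim21: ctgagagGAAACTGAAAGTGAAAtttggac
Trim30a: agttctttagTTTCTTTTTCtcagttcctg
Trim30d: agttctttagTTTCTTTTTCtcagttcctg
Trim12c: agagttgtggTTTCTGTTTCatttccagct
Trim12a: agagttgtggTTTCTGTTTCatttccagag
Trim34a: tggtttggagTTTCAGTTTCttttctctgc
Trim26: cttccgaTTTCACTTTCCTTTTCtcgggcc
Trim2: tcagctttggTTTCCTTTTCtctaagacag

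The Trim21 stretch lies at chr7:102565447-102565476 on the minus strand and holds 2 overlapping matches in the sense of the motif, 14 to 29 bases after the annotated start. Both windows of Trim30a held a match, and the stretch shown (chr7:104465210-104465239, minus strand) is the same 30 bases as that of Trim30d (chr7:104507871-104507900, minus strand), with the reverse complement of the motif before the start. Those of Trim12c (chr7:104353359-104353388, minus) and Trim12a (chr7:104315466-104315495, minus) share the match and most of its flanks. The others lie at chr7:104244457-104244486 (plus, Trim34a), chr17:36836979-36837008 (plus, Trim26) and chr3:84212791-84212820 (minus, Trim2). Of the genes shown, Trim21 and Trim30a rose, Trim2 fell and the others were not called. Trim30d changed by 0.17 (limma adjusted p = 0.427) and Trim12a by 0.10 (0.45), both at levels under the silent limit, and Trim12c, Trim34a and Trim26, named here for their matches, changed by 0.08, -0.02 and 0.06 (0.767, 0.957 and 0.655).

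By position, the nearest measured neighbours of the called genes were not called. In RefSeq gene order on chromosome 7, the members Trim6, Trim34a, Trim12a, Trim12c, Trim30a and Trim30d lie together, and of these 6 Trim30a alone was called (changes from -0.02 to 0.32). On chromosome 17 another 6, from Trim26 to Rnf39, lie together, and their changes ran from -0.13 to 0.07 with no call. Of these, Trim15, Trim10, Trim40 and Trim31 lay under the silent limit in both groups, as did Trim12a, Trim30a and Trim30d on chromosome 7. Of the 16 nearest measured protein-coding neighbours of the 8 called members, none passed limma at an adjusted p under 0.05, against 4.49% of all genes. The neighbours of Trim21 (Olfr549 and Olfr550), Trim30d beside Trim30a and Fhdc1 beside Trim2 lay under the silent limit in both groups. Not all are adjacent: 3 unmeasured protein-coding genes lie between Trim30a and Trim12c. An unadjusted p under 0.05 was reached by 2 of the 16, against 19.5% of all genes. So few genes do not show whether called members stand alone.

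Of the 9 Rnf genes with a protease-associated domain and a membrane span, Rnf130 rose. Rnf130, the mouse relative of fly goliath, measured 8.11, 8.20, 8.42 and 8.17 in shGFP arrays 1, 3, 5 and 7 and 8.67, 8.84, 8.71 and 8.74 in shMKRN1 arrays 2, 4, 6 and 8. All knockdown arrays were higher, and the control shGFP 5 came nearest to them. The rise was 0.51, or 1.43-fold (SE 0.073; limma adjusted p = 0.00517), the largest increase among the members, and its call held without each array in turn (0.00388 to 0.0234). Rnf128, known from T cell anergy, had a wide spread in shGFP (9.86, 9.29, 9.27 and 8.99) that covered the shMKRN1 arrays (9.37 to 9.72), and its change of 0.19 had an adjusted p of 0.592. Rnf43, which removes WNT receptors from the cell surface, changed by 0.05 (0.702) and Rnf150 by -0.16 (0.378).

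Of the 12 Rnf genes of the endoplasmic reticulum membrane, none was called, and 3 had an unadjusted p under 0.05, against 19.5% of all genes. Rnf103 measured 7.93, 7.72, 7.95 and 7.45 in shGFP and 8.19, 8.07, 8.07 and 8.28 in shMKRN1. The groups did not overlap, but the control arrays were widely spread, with shGFP 7 lowest. The change of 0.39 (SE 0.11) had a limma adjusted p of 0.0743. It passed among genes above the median level only (0.0319), with an intensity trend and robust prior (0.0339) and with array weights (0.0179). Rnf185, a ligase of protein degradation from the endoplasmic reticulum, changed by 0.18 (0.108) and passed in the first and last of these settings (0.0372 and 0.0173), Rnf180 by -0.16 (0.193) and Rnf121 by 0.10 (0.366).

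Of the 7 Rnf genes listed for innate immune and NF-kB signalling, none was called, 4 had an unadjusted p under 0.05, and 6 of their means were higher in shMKRN1. Among all genes, 19.5% had such a p and 52.8% a higher mean. The median change of the 7 was 0.13, against 0.01 for all genes. These differences, in a list of only 7 genes, were not tested. Rnf135, which ubiquitinates the RNA sensor RIG-I, lay at 7.04 ± 0.090 in the control and 7.30 ± 0.14 in the knockdown arrays (SD, n = 4 each; limma adjusted p = 0.0933), and its arrays overlapped through shMKRN1 4 (7.10). Rnf166 changed by 0.19 (0.0759), Rnf114 by 0.13 (0.147) and Rnf31, the catalytic subunit of the linear ubiquitin chain complex, by 0.13 (0.174). For these 3 every knockdown array exceeded every control, as it did for 10.6% of all genes. None of the 4 passed the test, and Rnf135, Rnf166 and Rnf114 did so under some other settings.

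Of the 7 measured Rnf genes of DNA damage and chromatin, none was called, and 1 had an unadjusted p under 0.05. Rnf40, which with Rnf20 ubiquitinates histone H2B, changed by 0.14 (limma adjusted p = 0.201), and Rnf20 by 0.08 (0.612). Rnf168, which marks H2A at DNA breaks, changed by -0.08 (0.425), Rnf111, an enhancer of Nodal and TGF-beta signalling, by -0.12 (0.412) and Rnf4, a ligase for SUMO-modified proteins, by -0.04 (0.779). Of the 8 RING-between-RING ligases, which pass ubiquitin through a catalytic cysteine of their own, none was called, and 1, Rnf31, had an unadjusted p under 0.05. Rnf144b changed by 0.12 (0.406), Rnf19a by 0.10 (0.453) and Rnf19b by 0.14 (0.473).

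Of the 5 measured Rnf genes of germ cells and meiosis, none was called, and 1 had an unadjusted p under 0.05. Rnf17, a tudor-domain protein of male germ cells, measured 9.01, 8.91, 8.97 and 8.75 in shGFP and 9.12, 9.16, 9.09 and 9.06 in shMKRN1. Its groups did not overlap, with a change of 0.20 (SE 0.063) and a limma adjusted p of 0.114, and it passed among genes above the median level only (0.0436) and with array weights (0.0288). Rnf151 changed by 0.06 (0.629), and Rnf212b and Rnf148 lay under the silent limit in both groups, as did 3 of the 5 in all.

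A further 59 members belonged to none of the lists, and 3 of them rose and none fell, against 3.66% and 0.838% of all genes. Rnf157, a ligase studied mainly in neurons, measured 7.62, 7.61, 7.70 and 7.73 in shGFP arrays 1, 3, 5 and 7 and 8.07, 8.08, 8.17 and 8.14 in shMKRN1 arrays 2, 4, 6 and 8. The groups were tight and far apart. It rose by 0.45, or 1.37-fold (SE 0.052; limma adjusted p = 0.00219), and the call held without each array in turn (0.00324 to 0.0129).

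Rnf213, a very large ligase with an AAA ATPase core that coats bacteria in the cytosol and is linked to moyamoya disease, measured 9.10, 9.03, 9.07 and 8.86 in shGFP and 9.37, 9.34, 9.23 and 9.30 in shMKRN1. The groups did not overlap, with shGFP 7 lowest. It rose by 0.29 (SE 0.064; limma adjusted p = 0.0325), and a further probe set of the gene changed by 0.22 (SE 0.068). The call was lost without shGFP 3 or any 1 shMKRN1 array (0.0565 to 0.0988), with shGFP 7 and shMKRN1 8 both left out (0.0527), and with both probe sets averaged (0.0548).

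Rnf181, a small RING protein, measured 11.00, 10.98, 10.97 and 11.05 in shGFP and 11.22, 11.19, 11.25 and 11.14 in shMKRN1. The groups did not overlap, but the rise of 0.20 (SE 0.048) was at the edge of the test, with a limma adjusted p of 0.0496. Of the fits with 1 array left out, only that without shGFP 7 kept the call (0.0493), and the others lost it (0.0507 to 0.163), as did averaging the probe sets of each gene (0.0503). Just outside the threshold was Trim41 (0.19, SE 0.05; adjusted p = 0.0583), named after its values were seen.

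**Figure D5:**
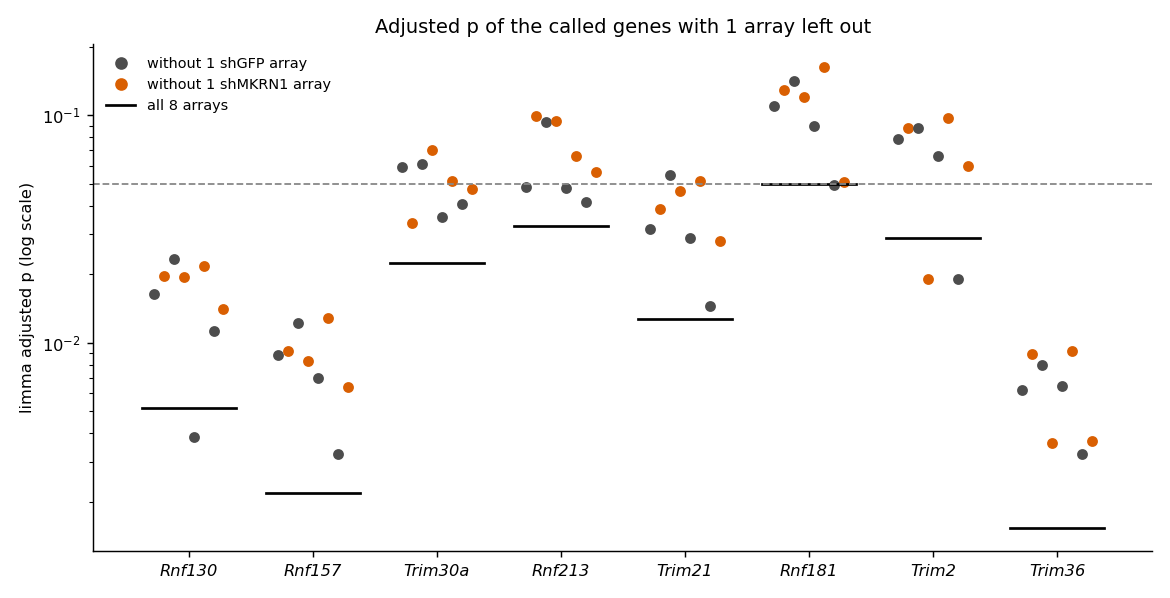
Limma adjusted p (log axis) of the 8 called genes with 1 array left out (dots; grey for a left-out shGFP array, orange for a left-out shMKRN1 array) and with all 8 arrays (black bars); the dashed line is the threshold of 0.05. Rnf130, Rnf157 and Trim36 stay under the line in all 8 fits, and most fits of Rnf181 and Trim2 lie above it.

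Other RING ligase genes, outside the Trim and Rnf names, were counted from a list. Of 82 listed, 67 were measured. Of these, 1 rose and 2 fell, against 3.66% and 0.838% of all genes. The 2 that fell include Mkrn1, which the hairpin targets. Uhrf2, a paralogue of the maintenance methylation factor Uhrf1, rose by 0.38 (SE 0.056; limma adjusted p = 0.00554). Rad18, which ubiquitinates PCNA at stalled replication forks, fell by 0.24 (SE 0.051; adjusted p = 0.0273). Its call was lost with arrays centred on their median (0.0629) and without any 1 array other than shGFP 7 (0.052 to 0.0979). Their median change was 0.03, against 0.04 for the Trim and Rnf members. Mkrn1 at -0.60 and Trim36 at -0.58 had the most negative changes among the genes of both sets.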

How the data were processed

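The deposited table holds log2 expression values of 8 one-colour arrays, which the submitters' processing notes say the authors made by RMA (release not given in the sources used here). The method brings arrays to a common distribution, so a change shared by most genes is not visible, and changes of dim genes are understated. Depth does not apply to arrays; their number limits the precision. Of 34760 probe sets, 21640 had 1 symbol in the platform annotation, 1321 had several and 11799 none. Where a gene had several, the probe set with the highest mean was kept (4 members had more than 1), and 9 probe sets that join a Trim or Rnf symbol with others were not used. Groups were compared with limma 3.58.1 in R 4.3.3 (lmFit, eBayes, with 6 residual degrees of freedom and 4 from the prior) without filter or covariate. The fit was also run on simulated arrays with independent noise for each gene. These hold no effect shared by the genes of an array, so they do not show how reliable the calls here are. By Entrez number, 135 members matched RefSeq (GRCm38.p6), used for gene order and promoters.

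Members, gene lists and settings were chosen with earlier results of these data known. Named members are all called ones, up to 4 per list by smallest p, the 5 highest and 3 lowest by level, the 3 largest changes in each direction above the silent limit, and all of the chromatin and NHL lists; of the other RING genes, those called.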

Additional observations from a re-analysis of the deposited data

Results flagged for a closer look

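In 106 checks of groups of 4 arrays (the named genes in each hairpin group, Mkrn1 entered more than once), 7 groups held an array far from the other 3. The check was Dixon's test at its 95% level, where chance gives about 1 in 20. In shGFP 7, Trim24 lay at 10.46 (the others 10.57 to 10.59), Trim33 at 11.08 (the others near 11.18) and Rnf43 at 6.98 (6.86 to 6.88). In shMKRN1 4, Trim32 lay at 8.21 (7.99 to 8.03) and Rnf148 at 5.37 (5.52 to 5.55). Rnf150 lay at 6.68 in shMKRN1 8 (6.45 to 6.48) and Rnf151 at 7.34 in shGFP 3 (7.24 to 7.26). Without shGFP 7 the change of Trim24 was -0.19 and that of Trim33 -0.11. None of these genes was called.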

How the results depend on the processing

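Every called member kept its direction in each setting it entered. The counts of members called (6 higher, 2 lower) and of all genes called (896) moved most. Among genes above the median level only, they were 11 and 1 of 81 members and 1595 genes (16% of those tested). Trim36 and Trim30a were then not tested. With array weights they were 14, 6 and 2757 (13.8% of all genes). With an intensity trend and robust prior 1549 genes were called (7.77%), with 9 and 2 members. Each of these settings called a larger share of all genes than the main fit (4.49%). Adjusted over all probe sets, 3 members were called higher and 1 lower, with Trim36, Trim21, Rnf130 and Rnf157 kept. In that setting 521 of 34760 probe sets passed, a count of probe sets and not of genes, and 1.9% of the genes were called. With 1 array left out the counts of members higher, members lower and genes ran from 2 to 7, from 1 to 2 and from 309 to 852, on fewer samples. The members' median of 0.036 (all genes 0.0077) was 0.061 with arrays centred on their median (all genes 0.033) and 0.017 with array weights (all genes -0.0012), while it ran from 0.025 to 0.039 with 1 array left out. Without both arrays that stand apart, a setting added after the data were seen, 4 members rose and 2 fell. Mkrn1 kept its call in each setting. Beside the main calls, quantile normalization added Rnf135 and Trim24, and median centring Rnf135 and Trim41. The cause of these differences was not tested.

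No called member changed sign. Of the 137 members, 14 uncalled ones did with arrays centred on their median, which adds the same amount to every gene, 13 with array weights and from 7 to 17 with 1 array left out. Among named genes, Trim3 was 0.025 with arrays centred and from -0.024 to 0.022 with 1 array left out. Trim66 was -0.0020 with array weights and from -0.056 to 0.12 with 1 array left out, Rnf148 from -0.034 to 0.10, Trim13 from -0.021 to 0.064, Trim30e-ps1 from -0.13 to 0.016 and Trim28 from -0.0012 to 0.016. Trim46 was 0.0093 with both arrays that stand apart left out.

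The hairpin groups share no array numbers, and the labels do not say whether neighbouring numbers belong together. A fit with neighbouring numbers as a block (3 residual degrees of freedom), added after the data were seen, called 5 members higher, 2 lower and 1446 genes, and of the members Rnf181 was lost (adjusted p = 0.063). Deviations from the group means correlated across genes by 0.125, -0.0475, 0.262 and 0.637 in the 4 neighbouring pairs. In the other pairs of a shGFP with a shMKRN1 array they ran from -0.527 to 0.406. The highest of these, for shGFP 5 with shMKRN1 4, lay above all neighbouring pairs but shGFP 7 with shMKRN1 8.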
